A study of Mus musculus with 12 samples.

Results

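The aminoacyl-tRNA synthetase genes encode the enzymes that attach each amino acid to its tRNA. They were taken from the array table by symbol: every probe set annotated to exactly 1 gene whose symbol is a capital letter followed by ars, with or without the endings 1, 2, a, b or l2, or is Eprs. The rule found 35 genes among the 19938 with a probe set of their own, on 36 of the 35556 probe sets, and the probe set with the highest mean was used for Iars, which has 2. Of the 35 genes, 19 encode cytosolic enzymes and 16 mitochondrial ones, whose symbols end in 2. Tarsl2, a cytosolic paralogue of Tars, is counted as cytosolic. Gars and Kars make both the cytosolic and the mitochondrial form of their enzyme from the same gene. A further probe set carries a synthetase symbol together with that of another gene and was left out by the rule.

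The cells were Min6, a mouse insulinoma line used as a model of the pancreatic beta cell, in 3 culture conditions of 4 arrays each. In the classic condition (CC) they stayed in DMEM with 15% fetal calf serum at 20% oxygen for all 3 periods of 5 days. In the defined condition (DC) the last 10 days were without serum at 5% oxygen, in DMEM-F12 with apo-transferrin, progesterone, putrescine and selenite. In the return condition (RC) only the middle 5 days were serum-free and at 5% oxygen, and the final 5 days were again like CC. Both media held Pen-Strep, and the serum medium also 2-mercaptoethanol. Serum, oxygen and supplements changed together, so their shares in a difference cannot be told apart. All flasks belonged to a single experiment, so p-values measure the spread between these quadruplicates, which may be technical.

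Cytosolic synthetases charge tRNAs for the bulk of protein synthesis, and several of them are held with the scaffold proteins Aimp1, Aimp2 and Eef1e1 in a multisynthetase complex. Mitochondrial synthetases are separate proteins, made in the cytosol and imported, and serve the translation of the few proteins that the mitochondrial genome encodes. Glutamine is an exception: mitochondria have no glutaminyl-tRNA synthetase of their own and reach charged glutaminyl-tRNA through Ears2 and an amidotransferase. When amino acids run short or the endoplasmic reticulum is stressed, the transcription factor ATF4 raises many cytosolic synthetase genes together with genes of amino acid synthesis and import.

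A script searched the RefSeq promoter windows of GRCm38.p6 (250 bases before to 50 after the annotated start) for TGATGNAA, the core of the element bound by ATF4 with a C/EBP partner, on both strands. Of the 35 genes, 26 matched a window, 27 windows in all, and 4 of them held the core, against 3.97% of all 32851 windows of that length. The 4 are the cytosolic genes Yars, Gars, Iars and Tars, shown because all belong to the group often listed as ATF4 targets. The core is in capitals, reading TTNCATCA where it lies on the other strand. It begins 3 bases after the annotated start in Yars (chr4:129189895-129189924, plus strand) and 7 after it in Iars (chr13:49682126-49682155, plus strand). It begins 30 bases before the start in Gars (chr6:55037960-55037989, plus strand) and 15 before it in Tars (chr15:11399655-11399684, minus strand).
Yars: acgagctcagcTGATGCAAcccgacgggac
Iars: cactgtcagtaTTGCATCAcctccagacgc
Gars: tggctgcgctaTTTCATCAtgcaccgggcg
Tars: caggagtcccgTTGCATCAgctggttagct
A match describes letters in the window and is not a measured binding site. Of 29 windows of genes known to respond to ATF4 or to amino acid shortage, 6 held the same core, among them that of Asns, the asparagine synthetase gene (chr6:7693214-7693243, minus strand).
Asns: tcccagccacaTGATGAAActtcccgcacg

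Values are the deposited log2 values, with array medians of 7.92 to 8.05 and interquartile ranges of 2.42 (RC 3) to 2.75 (CC 2). CC 1 and CC 2 had wider ranges (2.73 and 2.75) than CC 3 and CC 4 (2.58 and 2.57), and DC 4 (2.44) and DC 2 (2.47) were close to RC 3. Beta cell genes were high, with Ins2 at 13.03 ± 0.03, Iapp at 13.86 ± 0.03 and Pdx1 at 11.72 ± 0.11 in CC (SD, n = 4). Of 18 beta cell markers 3 rose and 1 fell in DC against CC, where 6.64% of all probe sets and 15.1% of genes above the median level were called, and 3 fell in RC against DC (2.63% and 6.03%). Of 19 fibroblast, endothelial, immune, exocrine and ductal markers none passed in any comparison (limma). In DC against CC 5028 of 19938 genes had an unadjusted p under 0.05, and 3 of these 19 markers did, with 0 in the other comparisons. Their differences in DC against CC were all positive (0.07 to 0.22), and their median deviation from the 12-array mean ran from -0.18 to 0.01 on the CC arrays, -0.08 to 0.22 on DC and -0.10 to 0.25 on RC. The part of these shifts in the synthetase results was not tested. The synthetase genes averaged 7.85 (Pars2) to 11.55 (Sars) over the 12 arrays, and 34 of the 35 lay above the median probe set (7.99). Levels of different probe sets are not compared.

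The first comparison, DC against CC, asked which genes differ after 10 serum-free days at low oxygen. Among the 35 synthetase genes, 1 rose and 2 fell (adjusted p under 0.05 in limma, adjusted over all 35556 probe sets). Wars2, the mitochondrial tryptophanyl-tRNA synthetase gene, rose 1.29-fold, Yars2, the mitochondrial tyrosyl-tRNA synthetase gene, fell 1.37-fold, and Qars, the cytosolic glutaminyl-tRNA synthetase gene, fell 1.32-fold. The call was made for 6.64% of all probe sets (2.31% higher and 4.32% lower) and for 15.1% of genes above the median level, so 3 of 35 is near the background. The count was 7 without DC 1, where 4.3% of genes above the median level rose and 12.4% fell. It was 1 without CC 1, CC 2 or DC 2. With array weights it was 6, where 8.58% of genes above the median level rose and 17.0% fell. The median difference was -0.06 over the 35 genes, -0.11 over the 19 cytosolic (0.02 with each array's interquartile range as covariate) and 0.01 over the 16 mitochondrial ones (-0.04 with arrays centred on a common median, 0.06 with quantile normalization and 0.07 with that covariate), against -0.04 over genes above the median level and 0.06 over all genes. The 95% interval lay within a 1.5-fold change either way for 33 of the 35 genes and within a 1.3-fold change for 24. At an unadjusted p under 0.05 in limma there were 9 of the 35, against 3767 of 11027 genes above the median level.

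**Figure D1:**
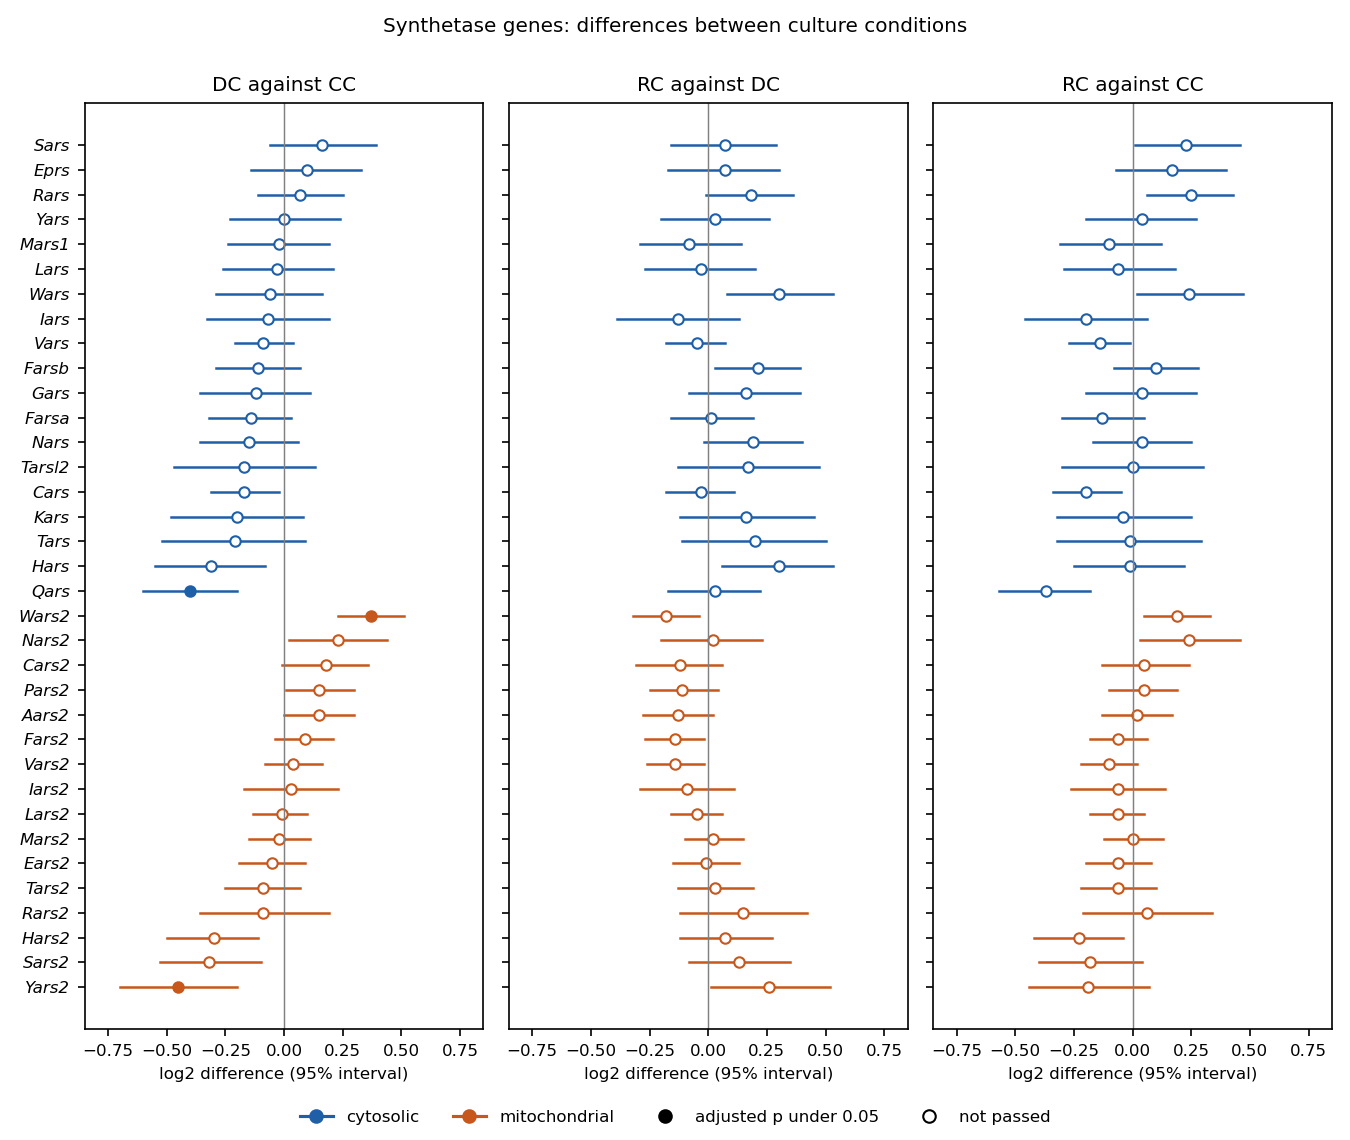
Log2 differences of the 35 synthetase genes (rows) in the 3 comparisons (panels) with limma 95% intervals; blue is cytosolic, orange mitochondrial, and filled points have an adjusted p under 0.05. Only Qars, Wars2 and Yars2 are filled, all in DC against CC, where the 35 differences run from -0.45 to 0.37.

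Wars2 (probe set 10494664) read 8.63, 8.59, 8.66 and 8.53 on CC 1 to CC 4, and 9.14, 8.96, 8.93 and 8.87 on DC 1 to DC 4. Every DC array was above every CC array. The difference was 0.37 ± 0.07 (SE, n = 4 per group; limma adjusted p = 0.0043; 95% interval 0.23 to 0.51). It passed in each of the 12 fits that left out 1 array, with an adjusted p up to 0.0189, but not when CC 1 and CC 2 were left out together (0.38, adjusted p = 0.0516). The RC arrays read 8.75, 8.75, 8.88 and 8.79, all above CC, and DC 4 alone among the DC arrays read below RC 3. Neither RC against DC (-0.18 ± 0.07, limma adjusted p = 0.26) nor RC against CC (0.19 ± 0.07, adjusted p = 0.32) passed.

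Yars2 (probe set 10433904) read 9.18, 9.11, 8.93 and 8.97 in CC and 8.92, 8.41, 8.71 and 8.36 in DC. The groups did not overlap, but DC 1 lay 0.01 below the lowest CC array, and DC 2 and DC 4 were the 2 low arrays. The difference was -0.45 ± 0.12 (limma adjusted p = 0.038; 95% interval -0.70 to -0.20). With arrays left out in turn it passed without DC 1 and without RC 3, and leaving out any other single array ended the call (adjusted p up to 0.13) at differences of -0.49 to -0.37. Without DC 2, DC 4 and RC 3, the arrays of narrowest spread, it was -0.23 (adjusted p = 0.227). With only the 2 groups compared it did not pass (-0.45, limma adjusted p = 0.0625), nor with the interquartile range as covariate (-0.26, 0.0536). The RC values were 8.92, 8.85, 8.72 and 8.96, overlapping both other groups, and neither RC against DC (0.26 ± 0.12, limma adjusted p = 0.39) nor RC against CC (-0.19 ± 0.12, adjusted p = 0.71) passed.

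Qars (probe set 10589004), a member of the multisynthetase complex, read 10.18, 10.28, 10.04 and 10.13 in CC and 9.89, 9.69, 9.83 and 9.62 in DC. All DC arrays were below all CC arrays, and the difference was -0.40 ± 0.09 (limma adjusted p = 0.017; 95% interval -0.60 to -0.20). It did not pass without CC 1, CC 2, DC 2 or DC 4 (adjusted p up to 0.0621), where the difference was -0.39, -0.36, -0.38 and -0.35. On the RC arrays Qars read 9.72, 9.89, 9.59 and 9.93, also all below CC and overlapping DC. RC against CC was -0.37 ± 0.09 (limma adjusted p = 0.092; 95% interval -0.57 to -0.18) and did not pass, and RC against DC was 0.03 ± 0.09 (adjusted p = 0.96). Ears2, which serves the mitochondrial glutamine route, had means of 8.46 ± 0.12 (CC), 8.41 ± 0.05 (DC) and 8.41 ± 0.03 (RC; SD, n = 4 each). The amidotransferase genes Gatb, Gatc and Qrsl1 differed by 0.02, 0.10 and -0.06 between DC and CC (limma adjusted p = 0.83, 0.53 and 0.58).

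**Figure D2:**
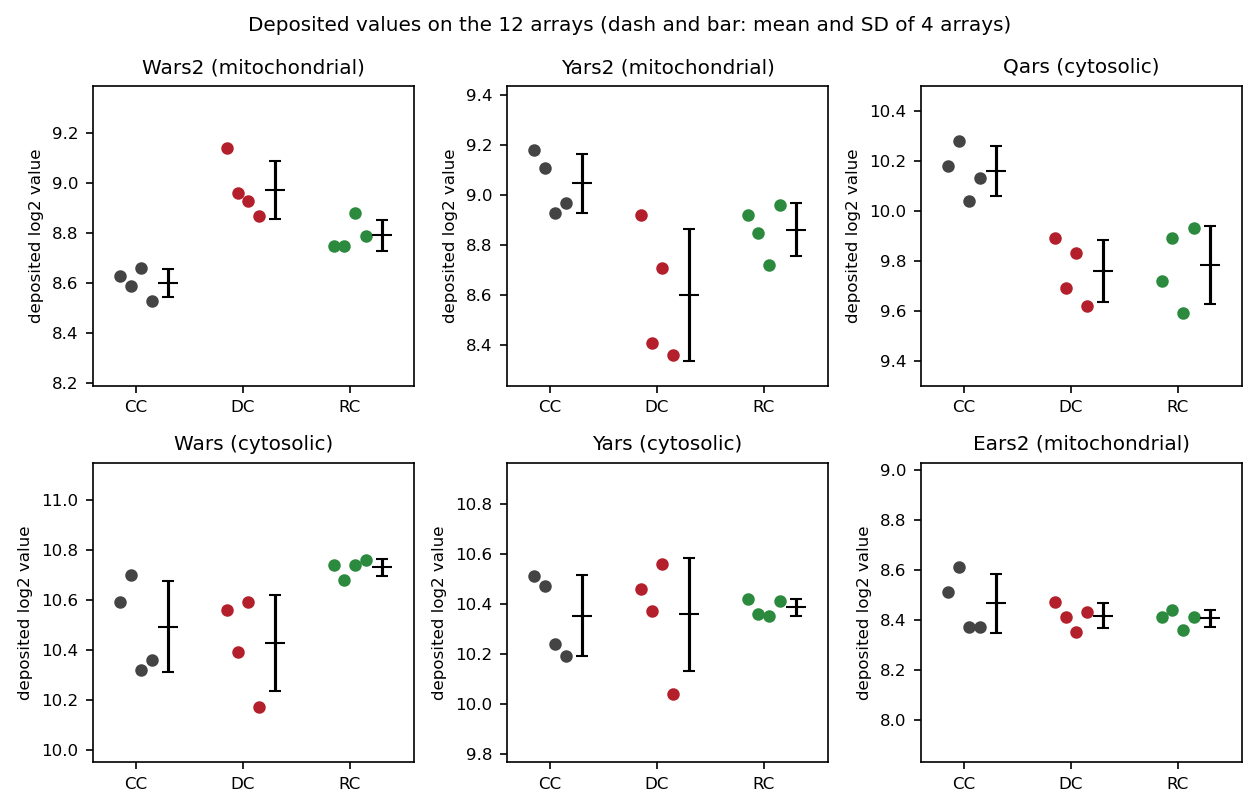
Deposited log2 values of 6 synthetase genes on the 12 arrays (points, replicates 1 to 4 from left to right; dash and bar, mean and SD of 4 arrays); every panel spans the same range around its own mean. Wars2 is higher and Yars2 and Qars are lower on every DC array than on any CC array, while the DC arrays of Wars, Yars and Ears2 overlap the CC arrays.

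The other cytosolic genes of the multisynthetase complex did not pass in DC against CC. Eprs, whose product charges both glutamate and proline, differed by 0.10 ± 0.11, Rars (arginine) by 0.07 ± 0.08, and Lars (leucine) and Mars1 (methionine) by -0.03 and -0.02. Kars (lysine) was at -0.20 ± 0.13. Iars (isoleucine) was at -0.07 ± 0.12, and its other probe set at -0.15 ± 0.11. Of the 3 scaffold genes, Aimp1 and Aimp2 both differed by 0.01, and Eef1e1 by -0.49 ± 0.15 (limma adjusted p = 0.074), so no scaffold passed. At an unadjusted p under 0.05 the scaffold list had 1 member, Eef1e1.

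Outside the complex, none of 12 cytosolic genes passed in limma, with 2 at an unadjusted p under 0.05. They ranged from Sars (serine), at 0.16 ± 0.10, to Hars (histidine), at -0.31 ± 0.11. Hars read 9.62, 9.63, 9.24 and 9.36 in CC and 9.42, 9.06, 9.16 and 8.97 in DC, and DC 1 lay within the CC range. Farsa and Farsb, the 2 subunits of phenylalanyl-tRNA synthetase, were at -0.14 ± 0.08 and -0.11 ± 0.08. Cars (cysteine) was lower on every DC array (10.51 to 10.74) than on any CC array (10.77 to 10.90) but did not pass (-0.17 ± 0.07, limma adjusted p = 0.20). Tars (threonine) was at -0.21 ± 0.14 and its paralogue Tarsl2 at -0.17 ± 0.14, with intervals reaching -0.52 and -0.47. Nars (asparagine) was at -0.15 ± 0.10, Gars (glycine) at -0.12 ± 0.11 and Vars (valine) at -0.09 ± 0.06.

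Of the 16 mitochondrial genes, 14 did not pass in DC against CC, and 8 of the 16 were above 0 and 8 below. After Yars2 the lowest were Sars2 (-0.32 ± 0.10, limma adjusted p = 0.09) and Hars2 (-0.30 ± 0.09, adjusted p = 0.065). Hars2 read 9.34 to 9.51 in CC and 9.02 to 9.26 in DC, with no overlap, and passed without DC 1 or without RC 3. Hars2 also passed with quantile normalization (limma adjusted p = 0.0358) and with array weights (0.00557). The same held with only the 2 groups compared (0.0304) and with only probe sets above the median level (0.0373). After Wars2 the highest were Nars2 (0.23 ± 0.10, limma adjusted p = 0.21) and Cars2 (0.18 ± 0.09, adjusted p = 0.26). Aars2 also had no overlap, with DC at 8.63 to 8.80 and CC at 8.43 to 8.61 (0.15 ± 0.07, limma adjusted p = 0.25). In all, 6 of the 35 genes had no overlap between DC and CC, 2 higher and 4 lower, where 15.3% of all probe sets (7.29% higher and 7.96% lower) and 25.2% of genes above the median level had none. Pars2 was at 0.15 ± 0.07 (limma adjusted p = 0.22), Fars2 at 0.09 ± 0.06 and Rars2 and Tars2 both at -0.09. Iars2 (0.03), Mars2 (-0.02), Lars2 (-0.01) and Vars2 (0.04) were nearest 0, with the interval of Lars2 from -0.13 to 0.10.

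Cytosolic and mitochondrial genes for the same amino acid were set against each other in 16 pairs, through the log2 ratio of mitochondrial over cytosolic value on each array. Farsa and Farsb are both paired with Fars2, and Eprs with both Ears2 and Pars2, so the pairs are not all independent. Only the change of that ratio between conditions is read. In DC against CC the ratio had no overlap between groups in 5 of the 16 pairs. How often ratios of other gene pairs have none was not worked out, so the count has no background of its own. For single genes above the median level the share was 25.2%. The ratio was higher in DC for Wars2 over Wars (by 0.43), Nars2 over Nars (0.38) and Cars2 over Cars (0.34). It was lower for Sars2 over Sars (-0.48) and Yars2 over Yars (-0.45). For these 5 pairs the exact p was at its limit. Each reached the smallest p that an exact two-sided permutation test of 4 against 4 arrays can give, 0.0286. After Benjamini-Hochberg adjustment over the 16 pairs it was 0.092, so no pair passed. With 5 pairs at the smallest p none can pass, however large its change, so the test cannot decide on a single pair. The pairs did not share a direction: the ratio was higher in DC in 11 of 16 and the median change was 0.08. On array DC 4 the cytosolic genes had a median gap of -0.41 to the other DC arrays, and the mitochondrial genes -0.08. The ratios were not worked out without DC 4 or under another scaling. Hars2 over Hars changed by 0.01, since the 2 genes differed by -0.30 and -0.31, and Mars2 over Mars1 by 0.00. Wars and Yars themselves were at -0.06 ± 0.10 and 0.00 ± 0.11 in DC against CC.

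Grouping by catalytic fold gave 1 rise and 2 falls among 18 class I genes, the group of Wars2, Yars2 and Qars, and 0 calls among 16 class II genes (limma), of which 5 had an unadjusted p under 0.05. In the same comparison, DC against CC, 15.1% of genes above the median level were called, and 3767 of 11027 had an unadjusted p under 0.05. Eprs, a fusion of both classes, is in neither. The median difference was -0.02 in class I and -0.13 in class II. Among the 12 cytosolic genes often listed as ATF4 targets none passed in limma, 1 had an unadjusted p under 0.05, and the median was -0.07. The 7 remaining cytosolic genes had 1 fall, Qars, and a median of -0.17.

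The 4 genes with the ATF4-type core near their start differed between DC and CC by 0.00 (Yars), -0.07 (Iars), -0.12 (Gars) and -0.21 (Tars), and none passed. Of the 28 measured genes of the ATF4 and amino acid response, 2 rose and 2 fell in DC against CC, with a median of -0.05. Among genes above the median level 4.59% rose and 10.5% fell, so the count of calls in the list is near the background. Ddit4, an inhibitor of mTORC1 signalling, rose by 0.94 ± 0.14 (limma adjusted p = 0.0013) and the stress factor gene Ddit3 by 0.41 ± 0.11 (adjusted p = 0.045). The amino acid importer genes Slc7a1 and Slc38a2 fell by 0.52 and 0.36. Asns, which is commonly used as a readout of amino acid shortage, had means of 12.53 ± 0.02 (CC), 12.54 ± 0.25 (DC) and 12.53 ± 0.02 (RC; SD, n = 4 each), so its spread in DC was wider than in the other conditions.

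That spread came from array DC 4, and the cytosolic synthetase genes shared it, a pattern noticed in the values and given without a test. Of the 19 cytosolic genes, 17 had their lowest DC value on DC 4 and 13 their lowest of all 12 arrays. DC 4 lay below the mean of the other 3 DC arrays for all 19, by a median of 0.41 on the log2 scale. Of the 16 mitochondrial genes 7 had their lowest DC value there, and their median gap was -0.08. Among genes above the median level DC 4 was the lowest DC array for 38.4%, with a median gap of -0.06, and the lowest of all 12 arrays for 18.6%.

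Sars read 11.62, 11.72 and 11.78 on DC 1 to DC 3 and 11.20 on DC 4, below all CC arrays (11.40 to 11.42). Iars read 11.39 to 11.43 on the other DC arrays and 10.91 on DC 4. Gars read 11.16 to 11.25 against 10.75, Nars 11.15 to 11.24 against 10.76 and Eprs 10.88 to 11.02 against 10.47. Yars and Tars, with the core near their start, lay 0.42 and 0.51 lower on DC 4 than the mean of the other DC arrays, and Vars, at 10.17 against 10.22 to 10.25, was the cytosolic gene closest to them. All 12 cytosolic genes often listed as ATF4 targets had their lowest DC value on DC 4, with a median gap of -0.43 to the mean of the other DC arrays. Of the 7 other cytosolic genes 5 did, with a median gap of -0.19. So did 5 of 6 genes of eIF2 alpha kinases and phosphatase subunits, 7 of 10 of cytosolic elongation and termination, and 14 of 24 of tRNA processing. Among 13 mitochondrial translation factor genes 5 did.

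The ATF4 and amino acid response genes were low on the same array. Of 28, 25 had their lowest DC value on DC 4, with a median gap of -0.54. The cystine importer gene Slc7a11 read 7.76 against 8.92 to 9.21, the tRNA export factor gene Xpot 9.50 against 10.29 to 10.47, Chac1 9.78 against 10.58 to 10.74, and Atf4 itself 9.54 against 9.87 to 10.06. Asns read 12.18 against 12.54 to 12.75. The interquartile range was 2.42 on RC 3 and 2.44 on DC 4. RC 3 differed from the other RC arrays by a median of -0.10 for the cytosolic synthetases and of 0.00 for the ATF4 list. It was the lowest RC array for 13 of the 19 cytosolic genes (68.4%) and 10 of the 28 ATF4-list genes (35.7%). Among genes above the median level that share was 46.6%. What set DC 4 apart was not tested.

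**Figure D3:**
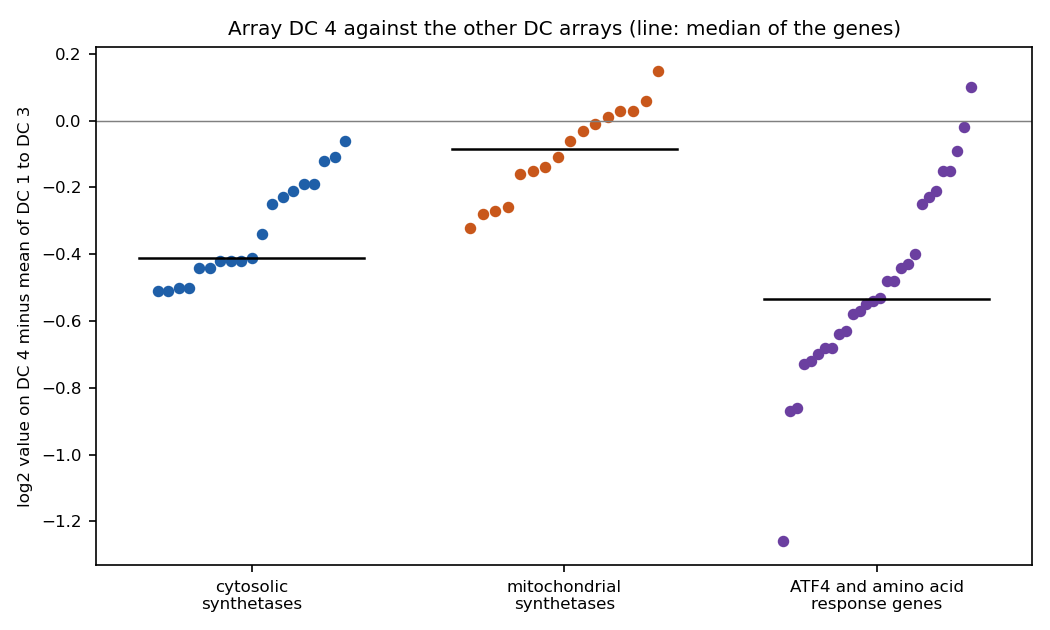
Log2 value on array DC 4 minus the mean of DC 1 to DC 3 for each cytosolic synthetase gene (19), mitochondrial synthetase gene (16) and ATF4 or amino acid response gene (28), sorted within each group; lines are medians. All cytosolic points lie below 0 with a median of -0.41, the mitochondrial points centre on -0.08 and the ATF4 list on -0.54.

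Without DC 4, the cytosolic median in DC against CC was -0.04 in place of -0.11, Qars was at -0.35 in place of -0.40 and did not pass (adjusted p = 0.0521), and Sars rose (0.29 ± 0.06, limma adjusted p = 0.015). In the ATF4 list 5 of 28 genes then rose and 1 fell, where 4.87% of genes above the median level rose and 8.38% fell. They were Ddit4 (1.11), Vldlr (0.65), Trib3 (0.56), Ddit3 (0.53) and Cth (0.51), while Slc7a1 fell (-0.48). The ATF4 list's median was 0.07 without DC 4. Since DC 4 was singled out because these genes were low on it, higher DC values without it follow from that choice. The calls made without DC 4 are therefore no separate evidence of a rise.

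The CC arrays also split, for these genes as for others. Of the 35, 24 read higher on both CC 1 and CC 2 than on CC 3 and CC 4, 15 of them cytosolic, and 3 lower, where 49.5% of genes above the median level were higher and 22.5% lower. The median gap was 0.15 for cytosolic and 0.07 for mitochondrial genes, against 0.07 for genes above the median level, and the widest among the synthetases were those of Tarsl2 (0.45), Kars (0.38), Hars (0.33) and Wars (0.30). The part of this split, which runs with the wider interquartile range of CC 1 and CC 2, in the differences from CC was not tested. Without CC 1 and CC 2 no synthetase gene passed in DC against CC (limma), and Qars was at -0.33 (adjusted p = 0.221). Without CC 3 and CC 4, with as many arrays, Wars2 rose and Hars and Qars fell. The cytosolic median in DC against CC was -0.02 without CC 1 and CC 2 and -0.16 without CC 3 and CC 4, and in RC against CC it was 0.15 and -0.14.

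**Figure D4:**
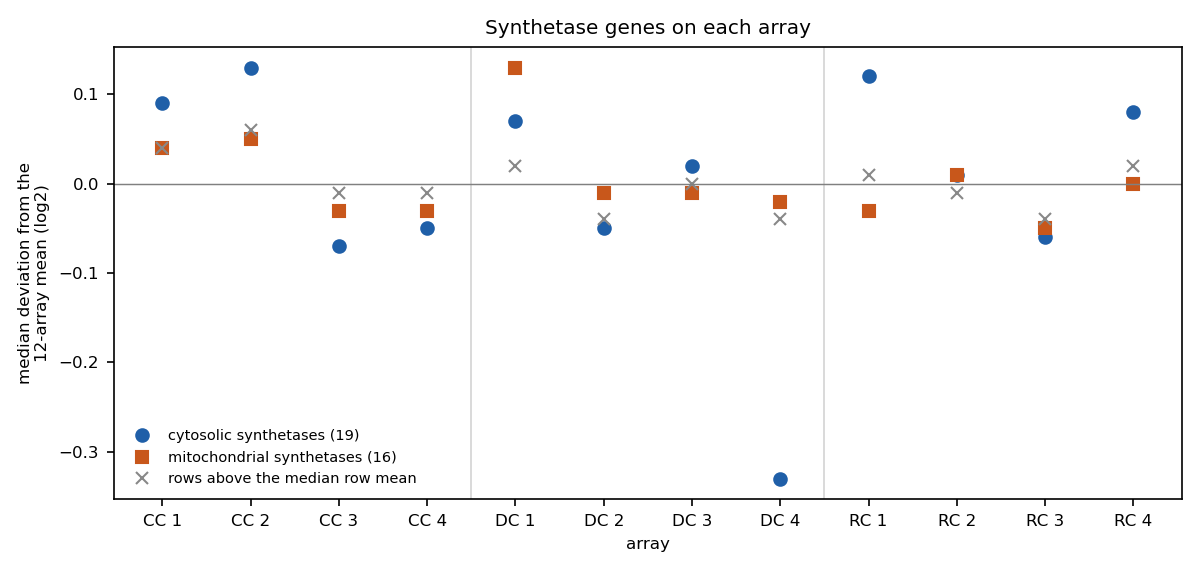
Median deviation of the cytosolic genes (circles), the mitochondrial genes (squares) and all probe sets above the median level (crosses) from their own means over the 12 arrays, on each array (log2). The cytosolic genes are at 0.09 and 0.13 on CC 1 and CC 2, at -0.07 and -0.05 on CC 3 and CC 4 and at -0.33 on DC 4, where the crosses are at -0.04.

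The second comparison, RC against DC, set cells returned to serum against cells kept without it. None of the 35 synthetase genes passed in limma, where 2.63% of all probe sets and 6.03% of genes above the median level were called. At an unadjusted p under 0.05 there were 7 of the 35, against 2433 of 11027 genes above the median level. The median was 0.03, with 0.07 over cytosolic and -0.03 over mitochondrial genes, and all 35 intervals lay within a 1.5-fold change. Wars read 10.74, 10.68, 10.74 and 10.76 in RC and 10.56, 10.39, 10.59 and 10.17 in DC, higher on every RC array, at a difference of 0.30 ± 0.10 (limma adjusted p = 0.21). Hars differed by as much (0.30 ± 0.11, adjusted p = 0.25), with 1 DC array, DC 1 at 9.42, inside the RC range of 9.37 to 9.50. Farsb was at 0.21 ± 0.08 (limma adjusted p = 0.31) and passed without DC 1. Fars2 and Vars2 were lower on every RC array, both at -0.14. With Wars these made 3 of 35 genes without overlap, where 6.29% of all probe sets (3.06% higher and 3.23% lower) and 13.4% of genes above the median level had none. Without DC 4 the cytosolic median was -0.01. The exact p of Wars2 over Wars (-0.48) and Fars2 over Farsb (-0.35) was 0.0286, the smallest the permutation test allows. After adjustment over 16 pairs it was 0.18, and so few pairs at the smallest p cannot pass, however large their changes.

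The third comparison, RC against CC, asked what differed from CC after the return. None of the 35 genes passed in limma, where 0.796% of all probe sets and 2.08% of genes above the median level were called. At an unadjusted p under 0.05 there were 9 of the 35, against 1930 of 11027 genes above the median level. All 35 intervals lay within a 1.5-fold change, and the median was -0.01. The groups did not overlap for 9 genes, 3 higher in RC (Rars, Sars and Wars2) and 6 lower (Qars, Cars, Hars2, Iars, Sars2 and Farsa), where 7.94% of all probe sets (2.49% higher and 5.45% lower) and 17.4% of genes above the median level had none. Qars was the farthest from 0. Rars read 10.84, 10.73, 10.85 and 10.73 in RC and 10.67, 10.62, 10.45 and 10.41 in CC (0.25 ± 0.08, limma adjusted p = 0.30). Sars read 11.56 to 11.69 in RC and 11.40 to 11.42 in CC (0.23 ± 0.10, adjusted p = 0.52). Nars2 was at 0.24 ± 0.10 (adjusted p = 0.44), a difference close to its 0.23 in DC against CC, and the 2 comparisons share the CC arrays. The ratio of mitochondrial over cytosolic value had no overlap in 6 pairs, higher in RC for Cars2 (0.25 over Cars), Nars2 (0.21 over Nars) and Fars2 (0.07 over Farsa), and lower for Sars2 (-0.42 over Sars), Yars2 (-0.22 over Yars) and Ears2 (-0.22 over Eprs). Each had an exact permutation p of 0.0286 and 0.076 after adjustment over the 16 pairs. With 6 pairs at this smallest p none can pass, however large its change. The share of other gene pairs without overlap was not worked out here either.

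The same fits covered other parts of the machinery around the synthetases. Among all genes above the median level, 4.59% rose and 10.5% fell in DC against CC, and 15.1% were called in either direction. So 1 call in a short list does not set that list apart. Of 24 genes of tRNA processing and modification, 1 fell in DC against CC, Elac2, which encodes the enzyme that trims tRNA 3′ ends (-0.34 ± 0.08, limma adjusted p = 0.025). Of 10 genes of cytosolic elongation and termination 1 fell, Gspt1, a translation termination factor gene (-0.54 ± 0.13, adjusted p = 0.029). Of 6 genes of eIF2 alpha kinases and phosphatase subunits 1 fell, Ppp1r15b, which encodes a subunit that directs phosphatase to eIF2 alpha (-0.38 ± 0.08, adjusted p = 0.014), and Eif2ak4, the kinase that senses uncharged tRNA, was at 0.08 ± 0.09. None of 13 mitochondrial translation factor genes passed in any comparison (limma), with 1 at an unadjusted p under 0.05 in each, and DC against CC ran from -0.20 (Tufm, the mitochondrial elongation factor Tu gene) to 0.10 (Gatc). None of 4 trans-editing or synthetase-like genes passed either, with 2, 0 and 1 at an unadjusted p under 0.05 in DC against CC, RC against DC and RC against CC. The 2 in DC against CC were Aarsd1 (-0.20 ± 0.09) and Dtd1 (0.17 ± 0.07), whose products clear mischarged tRNAs. In RC against DC these 5 lists had 0 calls, with 6 members in all at an unadjusted p under 0.05, and in RC against CC 0 calls, with 6. The shares called among genes above the median level were 6.03% and 2.08%. At an unadjusted p under 0.05 there were 2433 and 1930 of those 11027 genes, and 3767 in DC against CC.

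RefSeq places 6 of the synthetase genes with a window back to back with another gene, with starts on opposite strands close together, and the neighbours did not pass in DC against CC. Sars2 was at -0.32 and its neighbour Mrps12, a mitochondrial ribosomal protein gene, at 0.02. Kars was at -0.20 and Terf2ip at 0.00, Rars2 at -0.09 and Orc3 at 0.04, and Yars at 0.00 and S100pbp at -0.09. Ears2 was at -0.05 and Ubfd1 at -0.32, and Fars2 at 0.09 and Lyrm4 at 0.30 (limma adjusted p = 0.11 and 0.053 for the neighbours).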

How the data were processed

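Total RNA from Min6 flasks was labelled by a whole-transcript protocol and hybridised to GeneChip gene arrays, per the labels' protocols. The table holds the authors' deposited log2 value of each probe set on each array. The log scale was inferred from the range of 3.69 to 14.47. Not given in the sources used here: how probes were summarised and normalized, and the genome build. No detection calls or scan batches were used; precision is limited by the number of arrays. Condition and replicate number come from the sample titles. Genes were named through the 2016 platform annotation (21789 probe sets with 1 symbol, 1621 with several, 12146 with none).

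With limma 3.58.1 in R 4.3.3, all 35556 probe sets were modelled over the 12 arrays with a mean for each condition (9 residual degrees of freedom), two-sided, with Benjamini-Hochberg adjustment and a threshold of 0.05. The script was tested on simulated data. Genes described in full are those called in any comparison and the cytosolic and mitochondrial pairs; from other lists, called genes or those of smallest p. Asns, Eif2ak4, Aimp1, Aimp2 and the amidotransferase genes were added for their roles. Genes read out for DC 4, the CC split and the neighbours were chosen after their values were seen. The members and lists were chosen with earlier results of these data known. Same-numbered arrays did not deviate together: 5 of 12 correlations of their deviations exceeded 0.1 (-0.358 to 0.473), so the numbers were not taken as pairs.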

Additional observations from a re-analysis of the deposited data

Results flagged for a closer look

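Within groups of 4 arrays, the highest or lowest array stood apart by Dixon's criterion in 9 of 105 combinations of synthetase gene and condition, where chance alone flags about 1 in 20. On DC 4, Iars read 10.91 against 11.39 to 11.43 on the other DC arrays, and Cars 10.51 against 10.70 to 10.74. On RC 3, Hars2 read 8.94 against 9.28 to 9.31, Iars2 9.13 against 9.43 to 9.48 and Lars 10.01 against 10.27 to 10.32, while Aars2 was the highest of RC, at 8.73 against 8.52 to 8.54. In CC, Aars2 read 8.43 on CC 1 against 8.59 to 8.61, Pars2 7.67 on CC 2 against 7.81 to 7.83, and Sars2 9.52 on CC 2 against 9.40 to 9.41. What set these arrays apart was not tested.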

How the results depend on the processing

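In DC against CC, 3 synthetase genes passed as deposited and with the replicate block (the title number as a term), which changed no call in any comparison. With array weights 6 passed, where 8.58% of genes above the median level rose and 17.0% fell. Quantile normalization gave 4, with Hars2 added, where 6.83% of those genes rose and 10.0% fell. With only probe sets above the median level 4 passed, again with Hars2, where 5.71% rose and 13.1% fell. With only the 2 groups compared 3 passed, Hars2 in place of Yars2, where 4.26% rose and 10.3% fell. Without CC 1 and CC 2, 0 passed, and without CC 3 and CC 4, 3 (Hars, Qars and Wars2). With 1 array left out the count ran from 1 (without CC 1, CC 2 or DC 2) to 7 (without DC 1), and no call was reversed. The split of 1 rise and 2 falls was 2 and 1 with each array's interquartile range as covariate, and 3 and 0 (Nars2, Sars and Wars2) without DC 2, DC 4 and RC 3. In RC against DC the count of 0 became 5 with array weights, where 15.8% of genes above the median level rose and 9.39% fell. It ran from 0 to 1 with 1 array left out. In RC against CC the count of 0 became 6 with array weights, where 5.97% of genes above the median level rose and 9.26% fell. It became 2 with the interquartile range covariate (Nars2 and Qars). It became 1 with quantile normalization (Qars), with only probe sets above the median level (Qars) and without DC 2, DC 4 and RC 3 (Sars). It stayed at 0 with each array left out. The cytosolic median in DC against CC, -0.11, was -0.16 with arrays centred on a common median, -0.02 after quantile normalization and 0.02 with that covariate, so its sign depends on the scaling. The cause of these changes was not tested.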
